A study of Homo sapiens and Mus musculus with 99 samples.

Results

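The genes described here encode the proteins of the cytosolic ribosome, and their mRNA was followed in human airway epithelial lines exposed to an extract of the mould Alternaria alternata or to the pore-forming proteins Aeg-S and Aeg-L. The rule that picks them reads names, not values: a human gene was taken when its symbol was RPL or RPS followed by a number and at most 1 of the letters A, L or X, or when it was RPLP0, RPLP1, RPLP2 or RPSA. The rule found 81 of the 57820 genes in the human count tables. They are 43 proteins of the large subunit, 3 proteins of its stalk, 31 proteins of the small subunit and 4 paralogs (RPS27L, RPL39L, RPL3L and RPL10L).

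RNA-seq was made from 51 human libraries among the 99 libraries of the series, in 6 separate experiments with a mock control (DPBS, a buffered saline) in each. NCI-H1437 and NCI-H292 are established epithelial cell lines, both grown from human lung tumours of the non-small cell kind, so they stand for airway epithelium only as tumour lines do. RNA was collected after 4 h of stimulation. Groups held 2 libraries, except those of experiment H1437-1, which held 3.

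In NCI-H1437 there were 4 experiments. Experiment H1437-1 compared DPBS, A. alternata extract (ALT), and ALT with the compound labelled Tra, which the deposited table's name calls a MEK inhibitor. H1437-2 compared DPBS, Aeg-S alone, Aeg-L alone, both together (Aeg-S/L), and Aeg-S/L with Tra. H1437-3 compared DPBS, Aeg-S/L, and Aeg-S/L with BAPTA-AM, a calcium chelator that enters cells, or with EGTA, a calcium chelator that stays outside them. H1437-4 compared DPBS with extract from the wild-type mould (WT ALT) and from moulds labelled aegs KO and aegl KO. In NCI-H292, experiment H292-1 repeated the extracts of H1437-4, and H292-2 repeated the groups of H1437-3. No group received Tra, BAPTA-AM or EGTA without a stimulus, so an effect of the inhibitor on its own was not measured.

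A ribosome holds 1 copy of nearly every ribosomal protein, and cells make these proteins in matched amounts. In vertebrates most of their mRNAs start with a C followed by a run of pyrimidines, the 5′ terminal oligopyrimidine or TOP motif, through which growth signals passing through mTOR control their translation. Ribosomal protein mRNA is among the most abundant in dividing epithelial cells, and MYC is a transcription factor known to drive genes of ribosome production.

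The members were searched for this start in RefSeq promoters of build GRCh38.p14, windows of 300 bases from 250 before to 50 after the transcript start. Of the 81 genes, 64 were matched there, with 79 annotated starts. A C at the start followed by at least 4 further C or T bases, on the sense strand, was found at 58.2% of these starts and in 46 of the 64 genes. Over all 35116 promoter starts the share was 4.07%, and among mitochondrial ribosomal protein genes it was 6.02%. The windows below show the 20 bases before and the 20 bases from the start for the members described most closely, with the pyrimidine run in capitals. RPS29 and RPS27L are shown because their annotated starts lack it. Which starts the cells used was not measured.
RPS27 (chr1:153990742-153990781, plus strand): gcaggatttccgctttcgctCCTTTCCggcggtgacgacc
RPL21 (chr13:27251538-27251577, plus strand): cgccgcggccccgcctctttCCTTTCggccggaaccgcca
RPL38 (chr17:74203658-74203697, plus strand): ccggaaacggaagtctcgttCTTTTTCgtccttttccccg
RPLP0 (chr12:120201092-120201131, minus strand): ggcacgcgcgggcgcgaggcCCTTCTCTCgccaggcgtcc
RPSA (chr3:39406700-39406739, plus strand): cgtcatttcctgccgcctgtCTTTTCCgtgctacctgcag
RPS29 (chr14:49598691-49598730, minus strand): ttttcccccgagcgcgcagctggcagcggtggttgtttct
RPS27L (chr15:63157458-63157497, minus strand): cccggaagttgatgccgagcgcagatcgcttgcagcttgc

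Other short words were searched in the same windows on both strands. CCGGAA was found at 53.2% of member starts against 17.2% of all promoter starts, and CTTTCC at 46.8% against 26.3%. CCGGAA was as common at starts of mitochondrial ribosomal protein genes (54.2%) and of translation factors known for TOP mRNAs (62.5%), so it is not particular to the members. CTTTCC was at 32.5% and 37.5% of these starts. TATAAA was found at 7.59% against 11.5%, and CACGTG at 5.06% against 7.26%. CTTTCC can overlap the pyrimidine run itself. A match is a description of the letters, not a measured binding site.

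The libraries held 32425310 to 53172930 counts each, and the 81 genes took 2.88% to 10.0% of them. Levels are given in CPM, the number of counts per 1000000 counts of the library after TMM scaling, a scaling that sets the bulk of genes equal between libraries. The epithelial markers EPCAM, CDH1, KRT8, KRT18 and KRT19 summed to 2316 to 4102 CPM in NCI-H1437 and 3052 to 4086 CPM in NCI-H292, and among 4 markers of other cells PTPRC, CD3E and LYZ stayed at or below 0.245 CPM in every library, while the collagen gene COL1A1 was at 54.3 to 226 CPM in NCI-H1437 and 18.7 to 51.5 CPM in NCI-H292. The spread between replicates differed among experiments: the median SD of a ribosomal protein gene between replicates, on the log2 scale, was 0.505 in H1437-1, 0.229 in H292-1 and 0.217 in H1437-2, against 0.0738, 0.0594 and 0.0681 in H1437-3, H1437-4 and H292-2. Nothing in the labels beyond "biological replicates" says how libraries of a group were separated, so p-values measure the spread between these libraries. In H1437-1 the first DPBS library stood apart, with 10.0% of its counts in these genes against 6.29% and 4.55% in the other two.

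**Figure D1:**
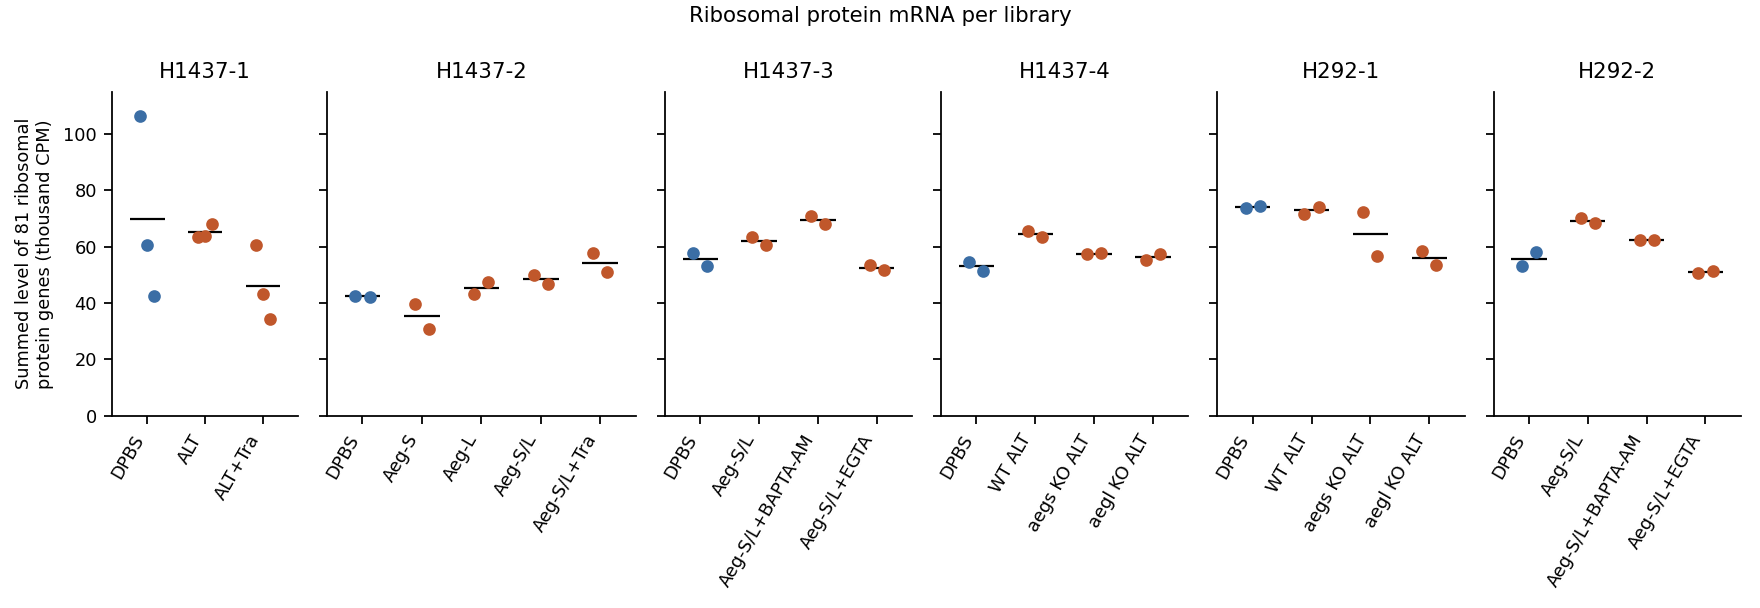
Summed level of the 81 ribosomal protein genes in each of the 51 human libraries (points), in units of 1000 CPM, by experiment and treatment, with group means as bars. In H292-2 the Aeg-S/L libraries (68.3 and 70.2) lie above DPBS (53.2 and 58.1), and in H1437-1 the DPBS libraries spread from 42.6 to 106.5.

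Levels in mock-treated cells ran from nearly nothing to among the highest in the table. Per kilobase of annotated exon, the mean DPBS levels were highest in NCI-H1437 for RPS27 (1473 CPM per kb), RPS2 (1231), RPL41 (1223), RPL8 (828) and RPS12 (766). In NCI-H292 they were highest for RPS12 (1123 CPM per kb), RPS2 (1015), RPL8 (862), RPL41 (828) and RPLP0 (766). Exon lengths include retained introns, so these per-length levels are understated where such transcripts are annotated. In all, 70 members exceeded 100 CPM in DPBS of both lines.

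A few members that every ribosome contains were counted at very low levels. Mean DPBS levels were 0.17 CPM in NCI-H1437 and 0.28 CPM in NCI-H292 for RPS18, 1.90 and 1.20 for RPL36A, 2.55 and 3.82 for RPS10, and 9.02 and 5.90 for RPL17. Ribosomal protein genes have many near-identical processed copies, and 48 members also share exon bases with another gene of the table, so reads of these members can be split or dropped in counting. How reads with several matches were counted was not given in the sources used here. For that reason the levels of these genes are uncertain, and RPL17, RPS10 and RPS18 were called in no comparison.

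The paralogs differed from their main copies and between the lines. RPL39L, a near copy of RPL39, averaged 58.0 CPM in DPBS of NCI-H1437, whereas in NCI-H292 its libraries held at most 1 count each, 0.0301 CPM or less. RPL3L, the muscle form of RPL3, averaged 0.48 and 0.13 CPM, and RPL10L, a testis form of RPL10, stayed too low to be tested in any comparison. RPS27 averaged 1393 CPM in DPBS of NCI-H1437 and 315 CPM in NCI-H292. The lines were processed in separate experiments, so line and experiment cannot be told apart for these levels.

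Aeg-S/L raised ribosomal protein mRNA across both subunits in 2 of the 3 experiments that used it. In NCI-H292 (H292-2), 71 of 77 tested members rose and 1 fell, with a median change of 0.31 on the log2 scale, or 1.24-fold. In NCI-H1437 (H1437-3), 41 of 79 rose and none fell, with a median of 0.16. Among all genes tested, 22.1% were called higher and 21.1% lower in H292-2, and 15.4% higher in H1437-3. A call is an adjusted p under 0.05 by edgeR's quasi-likelihood test with Benjamini-Hochberg adjustment over all genes, and the median change over all genes was near 0 by construction of the scaling.

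Proteins of both subunits rose in H292-2: 43 of 46 large-subunit and stalk proteins and 28 of 30 small-subunit proteins were called higher. The largest rise called was that of RPL21, a large-subunit protein. RPL21 had 359 and 396 CPM in the DPBS libraries and 531 and 501 CPM with Aeg-S/L. Both stimulated libraries lay above both controls, with a change of 0.45 ± 0.06 (log2, SE, n = 2 against 2, adjusted p = 2.59e-06). RPL30 (0.43 ± 0.06), RPS3A (0.43 ± 0.07), RPS9 (0.42 ± 0.06) and RPS27A (0.42 ± 0.07) followed it. RPS27A is made as a fusion with ubiquitin.

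The stalk proteins, which recruit translation factors to the ribosome, rose with the rest. RPLP0, the stalk's base, had 2620 and 2881 CPM in DPBS and 3456 and 3372 CPM with Aeg-S/L in H292-2, a change of 0.31 ± 0.05 (adjusted p = 4.52e-05). RPLP2 had 840 and 892 CPM in DPBS and 1065 and 1027 CPM with Aeg-S/L. RPSA, a small-subunit protein also known as a laminin receptor precursor, had 1596 and 1743 CPM in DPBS and 2168 and 2069 CPM with Aeg-S/L. In each of these genes the groups did not overlap.

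The median change was lower in H1437-3. RPLP0 had 2621 and 2472 CPM in DPBS and 2852 and 2719 CPM with Aeg-S/L, a change of 0.13 (adjusted p = 0.0369). The largest called rises were those of RPS15A (0.34 ± 0.08), RPS27 (0.31 ± 0.08), RPS9 (0.30 ± 0.06), RPL39 (0.29 ± 0.09) and RPS21 (0.28 ± 0.08). RPS27 had 1610 and 1404 CPM in DPBS and 2013 and 1731 CPM with Aeg-S/L. RPSA, at 1074 and 1041 CPM against 1169 and 1099 CPM, was not called. The count in H1437-3 rested on single libraries: it was 6 without DPBS replicate 2 or without Aeg-S/L replicate 1, and 24 without Aeg-S/L replicate 2. With libraries scaled by their totals alone, 9 were called in H1437-3 and 41 in H292-2, where the median of all genes shifted by -0.17 and the members stood 0.32 above it, as with TMM.

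In H1437-2, which also used Aeg-S/L, no member was called by edgeR or by DESeq2, and 3 had an unadjusted p under 0.05, while 6.72% of all genes were called. The median change was 0.16, the same size as in H1437-3, but replicates spread more. RPLP0 had 2445 CPM in both DPBS libraries and 2851 and 2665 CPM with Aeg-S/L, a change of 0.17 ± 0.16 with a 95% interval of -0.14 to 0.48. A fit of the DPBS and Aeg-S/L libraries alone, chosen after seeing the data, called 42 members, 32 higher and 10 lower. Without either Aeg-L library the count was 4.

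Aeg-S or Aeg-L given alone changed no member by the test, and of all genes 0% were called in either comparison by edgeR. With Aeg-L the median change was 0.09, no member had an unadjusted p under 0.05, and RPLP0 was at 2524 and 2632 CPM, a change of 0.08 ± 0.16 (95% interval -0.23 to 0.39). With Aeg-S the median was -0.29, 11 members had an unadjusted p under 0.05, and the 2 libraries disagreed. RPLP1 was at 1251 and 633 CPM with Aeg-S against 1426 and 1309 CPM in DPBS, and the members' share of counts was 4.09% and 2.88%. Without Aeg-S replicate 1, 27 members were called. DESeq2 called none for either protein.

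Extract from the wild-type mould gave the same kind of rise in NCI-H1437 in 1 experiment, H1437-4. In H1437-1, where ALT was set against DPBS and replicates spread more, the median change was -0.08. There 1 of 80 tested members was called, higher, where 3.59% of all genes were called higher. In H1437-4, 68 of 79 members rose with WT ALT and none fell, with a median of 0.31, or 1.24-fold, where 15.8% of all genes were called higher. By subunit these were 43 of 46 large-subunit and stalk proteins and 24 of 30 small-subunit proteins. The largest called rises were those of RPL26 (0.77 ± 0.13), RPS29 (0.70 ± 0.13), RPL38 (0.60 ± 0.07), RPS27 (0.57 ± 0.06) and RPS15A (0.54 ± 0.09). RPL38 had 274 and 242 CPM in DPBS and 408 and 377 CPM with WT ALT. RPS27, a zinc-finger protein of the small subunit, had 1352 and 1189 CPM in DPBS and 1935 and 1846 CPM with WT ALT, well apart (adjusted p = 1.18e-06). RPL39L rose too, from 53.85 and 50.04 CPM to 81.7 and 66.9 CPM (0.52 ± 0.08, adjusted p = 0.000189).

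The calls of these experiments, which share no library, overlapped. All 41 members that rose with Aeg-S/L in H1437-3 were among the 68 that rose with WT ALT in H1437-4 and among the 71 that rose with Aeg-S/L in H292-2. Of the 68 and the 71, 66 were shared, or 97.1% and 93.0%. With 68 of 79 and 71 of 77 members called, the number of calls nearly fixes these overlaps, and nothing is read from them. Across 72 members above 40 CPM in both lines, the Pearson correlation of the changes was 0.74 between H1437-3 and H1437-4, 0.46 between H1437-3 and H292-2 and 0.22 between H1437-4 and H292-2. These are correlations across genes of similar kind, length and depth, which are not independent replicates.

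**Figure D2:**
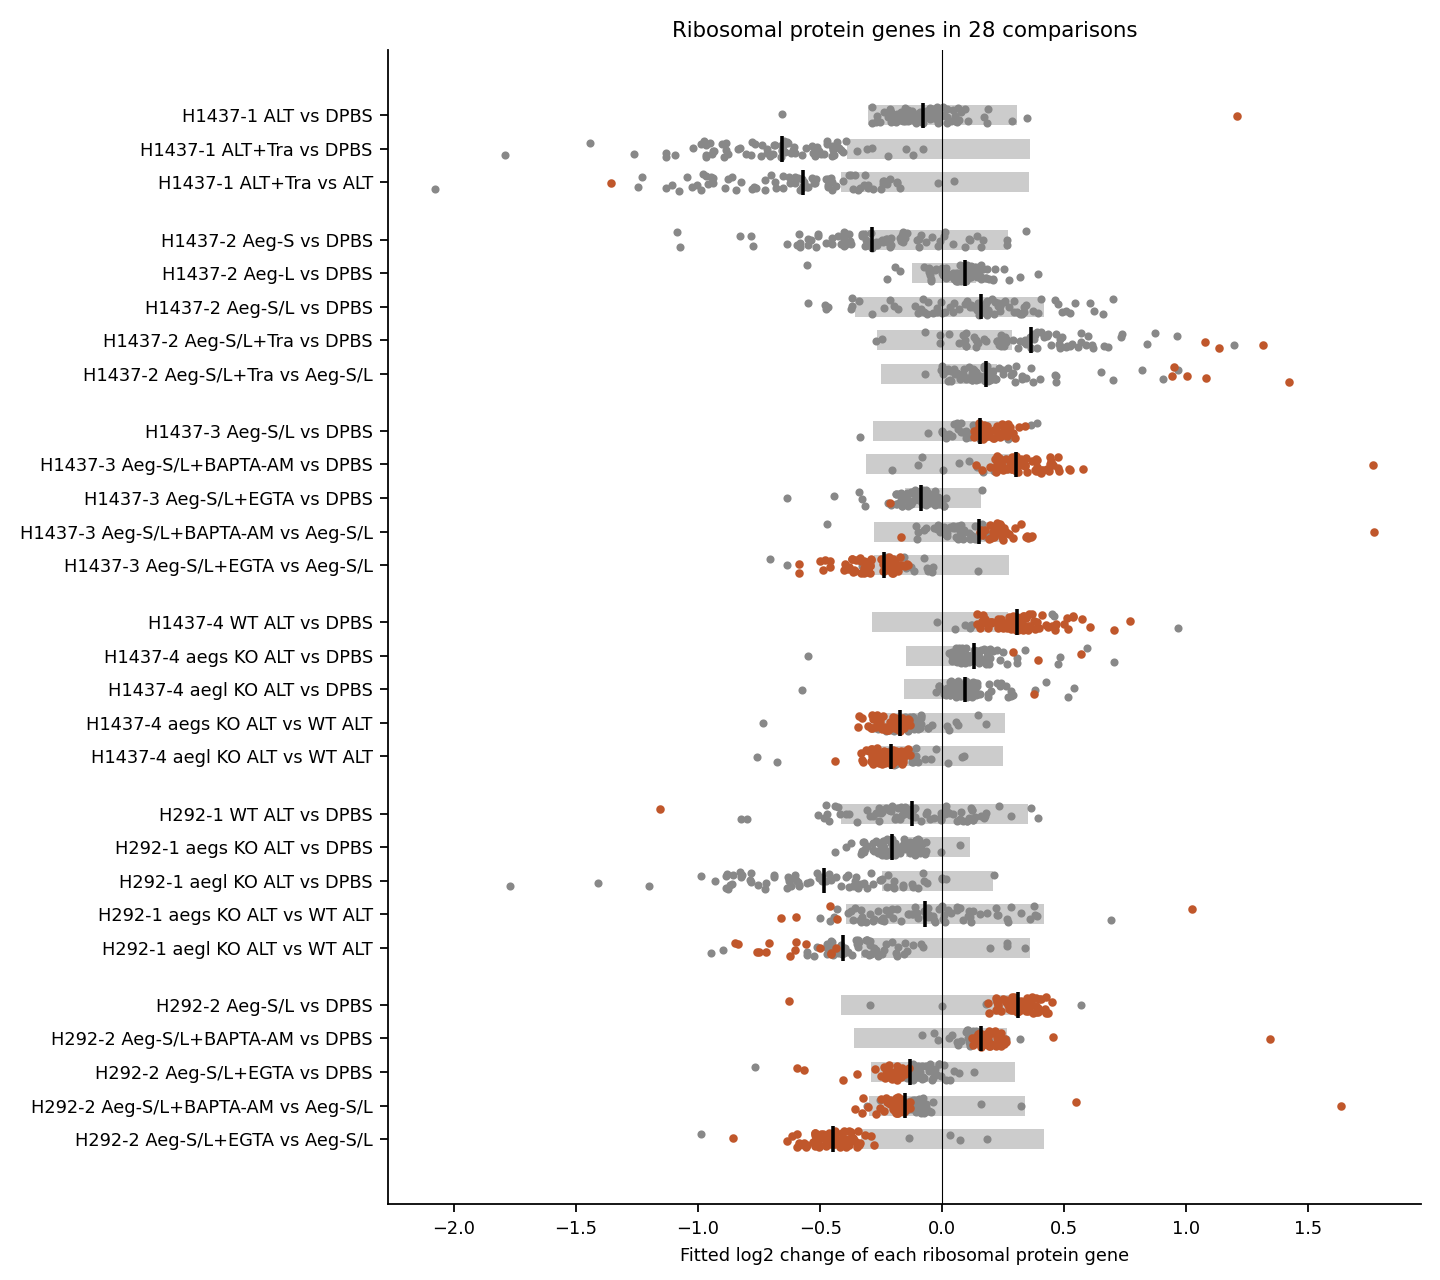
Log2 change of every tested ribosomal protein gene in each comparison (points), with their median as a black line and the genes called by edgeR in orange. Grey bands run from the first to the third quartile of all genes tested. The medians are 0.31 for Aeg-S/L in H292-2 and for WT ALT in H1437-4, and the medians for EGTA against Aeg-S/L lie below 0 in both lines (-0.24 in H1437-3 and -0.45 in H292-2).

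In NCI-H1437 many of these genes were lower with extract from the knockout moulds than with wild-type extract. Against WT ALT, 46 members were lower with aegs KO extract and 55 with aegl KO extract, none was higher in either, and 14.2% and 14.5% of all genes were called lower. Against DPBS, 3 members were higher with aegs KO extract (RPL26, RPL38 and RPS27), where 0.138% of all genes were called higher, and 1 with aegl KO extract (RPL38), where 0.168% were. The median changes against DPBS were 0.13 and 0.09, against 0.31 with WT ALT, and fitted changes were positive in 78 and 75 of 79 members. An unadjusted p under 0.05 was found for 37 and 25 members, and for 1959 and 2103 of all 16711 genes. RPL28, a large-subunit protein, had the largest fall among called members in both comparisons with WT ALT. It was at 298 and 279 CPM in DPBS, 414 and 381 CPM with WT ALT, 305 and 322 CPM with aegs KO extract and 290 and 296 CPM with aegl KO extract.

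Both knockout pairs of RPL28 lay below both WT ALT libraries, with changes of -0.34 ± 0.06 for aegs KO and -0.44 ± 0.06 for aegl KO (adjusted p = 0.000254 and 2.48e-05). RPS12 fell by 0.30 and 0.33 on the log2 scale, and RPS15 by 0.29 and 0.32. RPL38, a short member, stayed above its 274 and 242 CPM in DPBS. It was at 332 and 346 CPM with aegs KO extract and 313 and 358 CPM with aegl KO extract. The counts against WT ALT depended on single libraries. They were 10 and 15 for aegs KO without aegs KO replicate 1 or 2, and 19 for aegl KO without aegl KO replicate 1, while leaving out aegs KO replicate 2 gave 35 for aegl KO. Against DPBS the counts were 24 and 14 without either WT ALT library, 0 for aegs KO without DPBS replicate 2 or either aegs KO library, and 0 for aegl KO without DPBS replicate 2 or either aegl KO library.

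In NCI-H292 the wild-type extract did not raise these genes by the test. In H292-1, none of 78 tested members rose with WT ALT and only RPS27L fell, with a median of -0.13, while 11.3% of all genes were called lower. RPLP0 had 3035 and 3718 CPM in DPBS and 3630 and 3729 CPM with WT ALT, a change of 0.12 ± 0.14 with overlapping groups (95% interval -0.15 to 0.40). RPS27 had 593 and 289.5 CPM in DPBS and 244 and 254 CPM with WT ALT. The first DPBS and the first aegs KO library of H292-1 were high in RPS27, RPS29, RPL30 and RPL38, and these 2 groups spread widely in them. The count of 1 was 0 without WT ALT replicate 1, 2 without DPBS replicate 2 and 3 without either aegs KO library.

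Against WT ALT in H292-1, members were called lower mainly with aegl KO extract. There 14 of 78 were lower, with a median of -0.41, where 9.13% of all genes were called lower. With aegs KO extract 4 of 78 were lower and 1 higher, with a median of -0.07. Among all genes 13.4% were called lower and 13.2% higher with aegs KO extract, and nothing about the members as a set is read from those calls. RPL27, a large-subunit protein, had 511 and 521 CPM with WT ALT and 215 and 359 CPM with aegl KO extract, a fall of 0.85 ± 0.22 (adjusted p = 0.023). RPL29 had 1105 and 1115 CPM with WT ALT and 427 and 815 CPM with aegl KO extract. The 2 aegl KO libraries were far apart in both genes. Without either WT ALT library the aegl KO count was 0, without either aegs KO library it was 35 and without aegl KO replicate 1 it was 4. The aegs KO count of 5 was 0 and 1 without WT ALT replicate 1 or 2, 13 without aegs KO replicate 2 and 11 without either aegl KO library. Against DPBS none was called with either knockout extract by edgeR, where 0% and 0.120% of all genes were, with 4 members under an unadjusted p of 0.05 for aegs KO and 45 for aegl KO. For aegl KO DESeq2 called 23, and edgeR called 23 and 22 without aegs KO replicate 1 or 2 and 4 without aegl KO replicate 2.

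The difference between the lines in the response to WT ALT was tested directly, as the change in H292-1 minus that in H1437-4. It was called for 6 members, all smaller or more negative in NCI-H292 (RPS29 at -1.54, RPS27L at -1.28, RPL38 at -1.12, RPL26 at -1.05 and RPS21 at -0.80 among them), where 4.70% of all genes were called lower. Leaving out single libraries moved this count between 1 and 34: it was 34 and 27 without H292-1 aegs KO replicate 1 or 2, 2 without H292-1 DPBS replicate 1 or either H292-1 WT ALT library, and 1 to 3 without any 1 library of H1437-4. The corresponding difference for Aeg-S/L, H292-2 minus H1437-3, was called higher for 8 members and lower for 1, where 7.48% and 6.82% of all genes were. It was 2 and 4 in all without H292-2 Aeg-S/L replicate 1 or 2, 4 and 15 without H292-2 DPBS replicate 1 or 2, 3 and 19 without H1437-3 DPBS replicate 1 or 2, 3 without H1437-3 Aeg-S/L replicate 2, and 18 without either H292-2 EGTA library.

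Ribosomal protein mRNA under Aeg-S/L changed when either calcium chelator was added. EGTA lowered ribosomal protein mRNA in both lines: against Aeg-S/L alone, 65 of 79 members fell in H1437-3 (median -0.24) and 71 of 77 in H292-2 (median -0.45, or 0.733-fold), and none rose. Among all genes tested, 14.8% and 21.7% were called lower. BAPTA-AM raised most called members in H1437-3, where 32 rose and 1 fell (median 0.15). In H292-2 most called members fell, with 39 lower and 2 higher (median -0.15). Of these, 15 were called higher in H1437-3 and lower in H292-2, or 46.9% of the 32 and 38.5% of the 39. RPL36A, one of the genes counted at low levels, rose most in both, from 2.84 and 2.08 to 7.62 and 9.19 CPM in H1437-3 (1.77 ± 0.27, adjusted p = 9.57e-05) and from 0.962 and 0.739 to 2.99 and 2.31 CPM in H292-2 (1.64 ± 0.37, adjusted p = 0.00149). All genes were called higher in 11.6% and lower in 16.1% of cases in H1437-3, and higher in 17.6% and lower in 20.3% in H292-2.

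Most members had a lower fitted level under EGTA than in the mock control, with medians of -0.13 in H292-2 and -0.09 in H1437-3. RPLP0 in H292-2 was at 2585 and 2446 CPM with Aeg-S/L and EGTA, against 3456 and 3372 CPM with Aeg-S/L alone, a fall of 0.44 ± 0.05 (adjusted p = 7.43e-07). RPL21 was at 334 and 340 CPM, below its 359 and 396 CPM in DPBS, and fell by 0.61 ± 0.06 against Aeg-S/L (adjusted p = 4.99e-08). RPL26, a large-subunit protein near the exit tunnel, had the largest called fall, 0.86 ± 0.10, from 28.1 and 26.6 CPM to 14.1 and 16.0 CPM. RPS29, RPL36 and RPS28 fell by 0.64, 0.60 and 0.59.

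In H1437-3 the largest called falls under EGTA were those of RPS29 (-0.59 ± 0.12), RPL26 (-0.59 ± 0.17), RPS27 (-0.50 ± 0.08), RPL38 (-0.49 ± 0.08) and RPS15A (-0.48 ± 0.08). RPS27 was at 1398 and 1245 CPM with EGTA, against 2013 and 1731 CPM with Aeg-S/L and 1610 and 1404 CPM in DPBS. Set against DPBS, 34 members were lower under EGTA in H292-2 and 1, RPS13, in H1437-3, where 14.4% of all genes were called lower in H292-2 and 0.988% in H1437-3. Of the 65 and 71 members that fell against Aeg-S/L, 63 were shared, or 96.9% and 88.7%. With 65 of 79 and 71 of 77 members called, the number of calls nearly fixes this overlap, and nothing is read from it. In H1437-3 the count fell to 34 without Aeg-S/L replicate 1 and 41 without EGTA replicate 2, and was 35 with libraries scaled by their totals alone. In H292-2 it stayed at 71 to 72 with any library left out. Against DPBS it was 10 in H292-2 without DPBS replicate 2, and in H1437-3 it was 11 without DPBS replicate 2 and 0 to 2 without any other library.

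Under BAPTA-AM the genes of H1437-3 stood at their highest. RPS2, a small-subunit protein at the mRNA entry, had 3084 and 2836 CPM in DPBS, 3246 and 3227 CPM with Aeg-S/L, and 4264 and 3993 CPM with BAPTA-AM added. The last step was a rise of 0.35 ± 0.05 (adjusted p = 2.31e-05), with no overlap. RPL14 (0.36 ± 0.06) and RPL28 (0.35 ± 0.07) rose by about as much, and RPLP0 by 0.21. Only RPS26 fell, by 0.17 ± 0.06. Against DPBS, 69 of 79 members were higher, where 15.0% of all genes were. Without Aeg-S/L replicate 2, 21 members were called against Aeg-S/L.

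In H292-2 the same addition moved values back toward the control. RPL4, a large-subunit protein, had 2204 and 2295 CPM in DPBS, 2989 and 2916 CPM with Aeg-S/L, and 2382 and 2324 CPM with BAPTA-AM added, a fall of 0.33 ± 0.05 (adjusted p = 8.12e-06). RPS27 (-0.36 ± 0.07), RPS9 (-0.32 ± 0.06), RPL39 (-0.31 ± 0.09) and RPL30 (-0.27 ± 0.06) also fell. RPS2 did not pass the test, at 2744 and 2641 CPM with Aeg-S/L and 2578 and 2639 CPM with BAPTA-AM. Against DPBS 43 members were still higher, where 17.6% of all genes were. That count was 8 without DPBS replicate 1, and 17 and 14 without BAPTA-AM replicate 1 or 2.

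The difference of the BAPTA-AM effects between the lines was tested directly. It was called for 49 members, all more negative in NCI-H292, with a median of -0.34, where 6.01% of all genes were called lower. RPS28, a small-subunit protein, had 394 and 414 CPM with Aeg-S/L and 537 and 488 CPM with BAPTA-AM in H1437-3, but 288 and 287 CPM and then 252 and 241 CPM in H292-2, a difference of -0.61 ± 0.10. RPL30 (-0.56 ± 0.10), RPL28 (-0.54 ± 0.10) and RPL14 (-0.51 ± 0.09) were among the others. Leaving out single libraries gave 32 to 52, the lowest without H1437-3 Aeg-S/L replicate 2, H292-2 Aeg-S/L replicate 1 or H292-2 BAPTA-AM replicate 1. For EGTA the difference was called for 25 members, all more negative in NCI-H292, where 6.15% of all genes were. That count was 10 without H1437-3 Aeg-S/L replicate 2, 9 without H292-2 Aeg-S/L replicate 1 and 38 without H1437-3 DPBS replicate 2.

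The fall in H292-2 is relative to the other genes. Under BAPTA-AM against Aeg-S/L, scaling by library totals alone shifted the median of all genes by 0.20, and on that scale 7 members rose, 1 fell and the members' median was 0.03. Relative to the median of all genes the members stood at -0.17 under both scalings. The share of counts from the mitochondrial genome was lowest under BAPTA-AM, 0.190% and 0.217% of counts in H292-2 against 1.82% and 2.05% with Aeg-S/L, and 0.796% and 1.15% against 3.26% and 3.45% in H1437-3. Its part in these results was not tested. The H292-2 count was also carried by few libraries, at 13 and 24 without Aeg-S/L replicate 1 or 2 and 11 and 14 without BAPTA-AM replicate 1 or 2. The H292-2 columns name the chelator BAPTA without the stimulus, and the deposited counts of this experiment are named for ALT. The other stimulated columns name Aeg-S/L, and the sample labels, which were followed, give Aeg-S/L with BAPTA-AM.

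**Figure D3:**
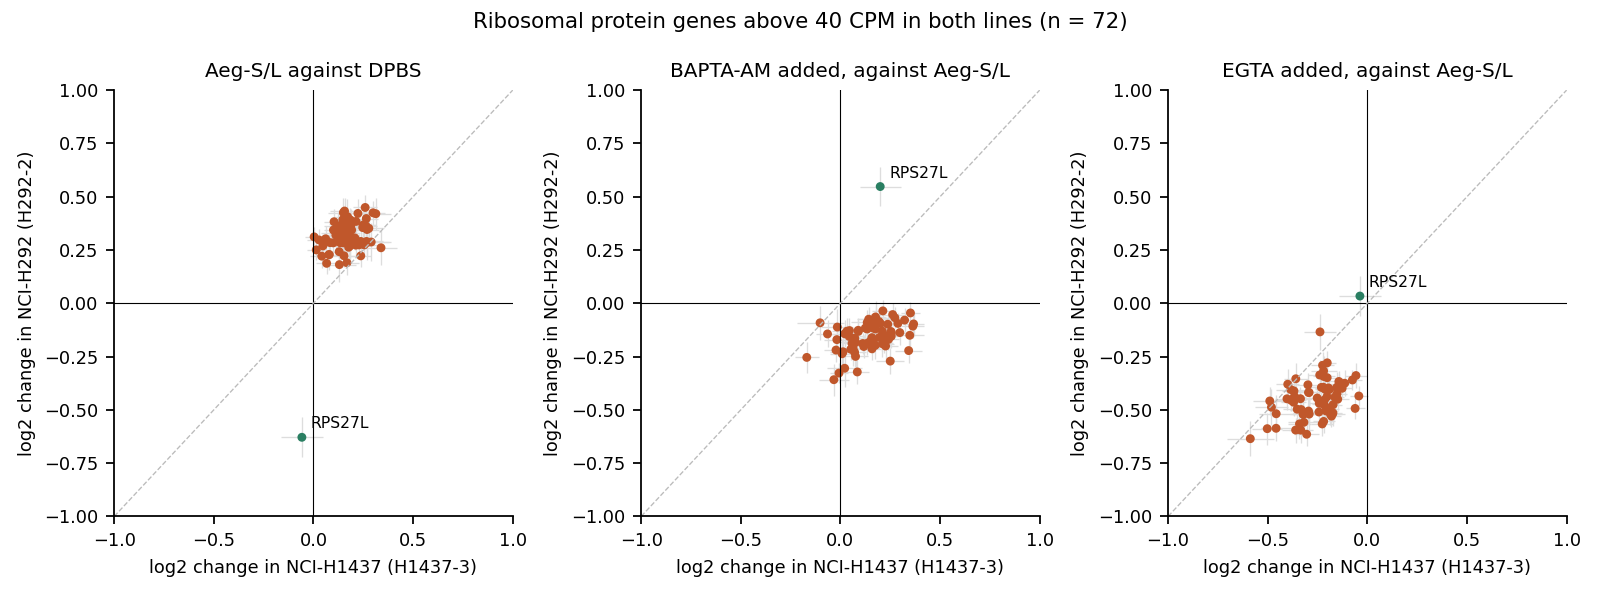
Log2 change of 72 ribosomal protein genes above 40 CPM in both lines, with Aeg-S/L against DPBS (left) and with BAPTA-AM (middle) or EGTA (right) added, against Aeg-S/L, NCI-H1437 (H1437-3) on the horizontal axis and NCI-H292 (H292-2) on the vertical axis; bars are standard errors and the dashed line marks equal change. Points for EGTA lie below 0 on both axes except RPS27L (green), and most points for BAPTA-AM lie right of 0 in NCI-H1437 and below 0 in NCI-H292.

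Tra gave no common change over the 2 experiments. Against the stimulus alone, the median change was -0.57 in H1437-1, with negative fitted changes in 79 of 80 members. In H1437-2 it was 0.18, with positive fitted changes in 76 of 79. In H1437-1, with ALT as the stimulus, only RPL36A was called, higher with ALT than with DPBS (3.59% of all genes were called higher) and lower with Tra added (3.75% called lower). RPL36A had 1.31, 1.47 and 1.17 CPM in DPBS, 2.85, 3.11 and 3.19 CPM with ALT, and 1.26, 1.38 and 0.91 CPM with ALT and Tra. Its level is uncertain for the reason given above, and the call with ALT was lost without DPBS replicate 2 or 3 or any ALT library, the call with Tra without any ALT library. All 80 tested members had a lower fitted level with ALT and Tra than with DPBS (median -0.66), but none was called by edgeR or DESeq2, 7 had an unadjusted p under 0.05, and 0.283% of all genes were called.

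The replicates of H1437-1 were far apart in these genes, and RPS29 spread most (SD 1.29 on the log2 scale, against a median of 0.505 over the members). RPS29 had 930, 392 and 82.9 CPM in DPBS, 338, 416 and 457 CPM with ALT, and 339, 126 and 51.4 CPM with ALT and Tra. The 3 groups overlapped. Without DPBS replicate 1 the median change with ALT turned from -0.08 to 0.36.

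In H1437-2, with Aeg-S/L as the stimulus, 5 members rose when Tra was added, where 0.124% of all genes were called higher. They were RPS29 (1.42 ± 0.19), RPL38 (1.08 ± 0.19), RPL37A (from 248 and 243 to 531 and 455 CPM), RPL37 (0.95 ± 0.18) and RPL39 (0.94 ± 0.18), all short proteins. RPS29 had 102 and 112 CPM in DPBS, 87.4 and 87.6 CPM with Aeg-S/L, and 252 and 217 CPM with Aeg-S/L and Tra (adjusted p = 0.00149). RPL38 had 94.5 and 94.9 CPM, then 117 and 106 CPM, then 258 and 213 CPM. Both libraries with Tra lay above all others of these groups. RPL38, RPS29 and RPL37A were also higher than in DPBS, where 0.478% of all genes were called higher. Without any 1 of the Aeg-S/L or Tra libraries, 1 member was called against Aeg-S/L, and against DPBS 0 without either DPBS library or Tra replicate 1, 1 without Tra replicate 2, and 6 without either Aeg-S library. For the same genes in H1437-1, the fitted change with Tra was negative and not called.

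RPS27L moved apart from RPS27 with Aeg-S/L in H292-2. RPS27L is a paralog of RPS27 known as a target of p53. In H292-2 RPS27L had 43.5 and 52.7 CPM in DPBS and 31.0 and 31.3 CPM with Aeg-S/L, a fall of 0.63 ± 0.09 (adjusted p = 2.00e-05), while RPS27 went from 171 and 208 CPM to 259 and 248 CPM, a rise of 0.42 ± 0.07 (adjusted p = 0.000143). With BAPTA-AM RPS27L was at 46.4 and 44.6 CPM, a rise of 0.55 ± 0.09 against Aeg-S/L, and with EGTA it stayed at 32.1 and 31.6 CPM.

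RPS27L fell with WT ALT in H292-1 as well, from 78.3 and 71.0 CPM to 31.6 and 35.5 CPM, a change of -1.16 ± 0.23 (adjusted p = 0.0055). There RPS27 did not move the other way: its mean was 441 CPM in DPBS and 249 CPM with WT ALT, and it was not called. With aegs KO extract RPS27L was at 87.8 and 48.5 CPM and with aegl KO extract at 36.9 and 43.8 CPM. The aegs KO libraries lay above both WT ALT libraries (1.02 ± 0.23, adjusted p = 0.0089). Leaving out WT ALT replicate 1 ended both calls, at -1.07 and 0.94. In NCI-H1437 RPS27L was not called with either stimulus: it had 48.1 and 43.1 CPM in DPBS and 46.1 and 41.5 CPM with Aeg-S/L in H1437-3, and 41.4 and 46.4 CPM in DPBS and 43.4 and 50.1 CPM with WT ALT in H1437-4. The difference between the lines was called for both stimuli, at -0.55 ± 0.15 (adjusted p = 0.014) for Aeg-S/L and -1.28 ± 0.27 (adjusted p = 0.0064) for WT ALT. The first was lost without H1437-3 DPBS replicate 2 (-0.47), H1437-3 Aeg-S/L replicate 1 (-0.48) or H292-2 DPBS replicate 2 (-0.42).

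**Figure D4:**
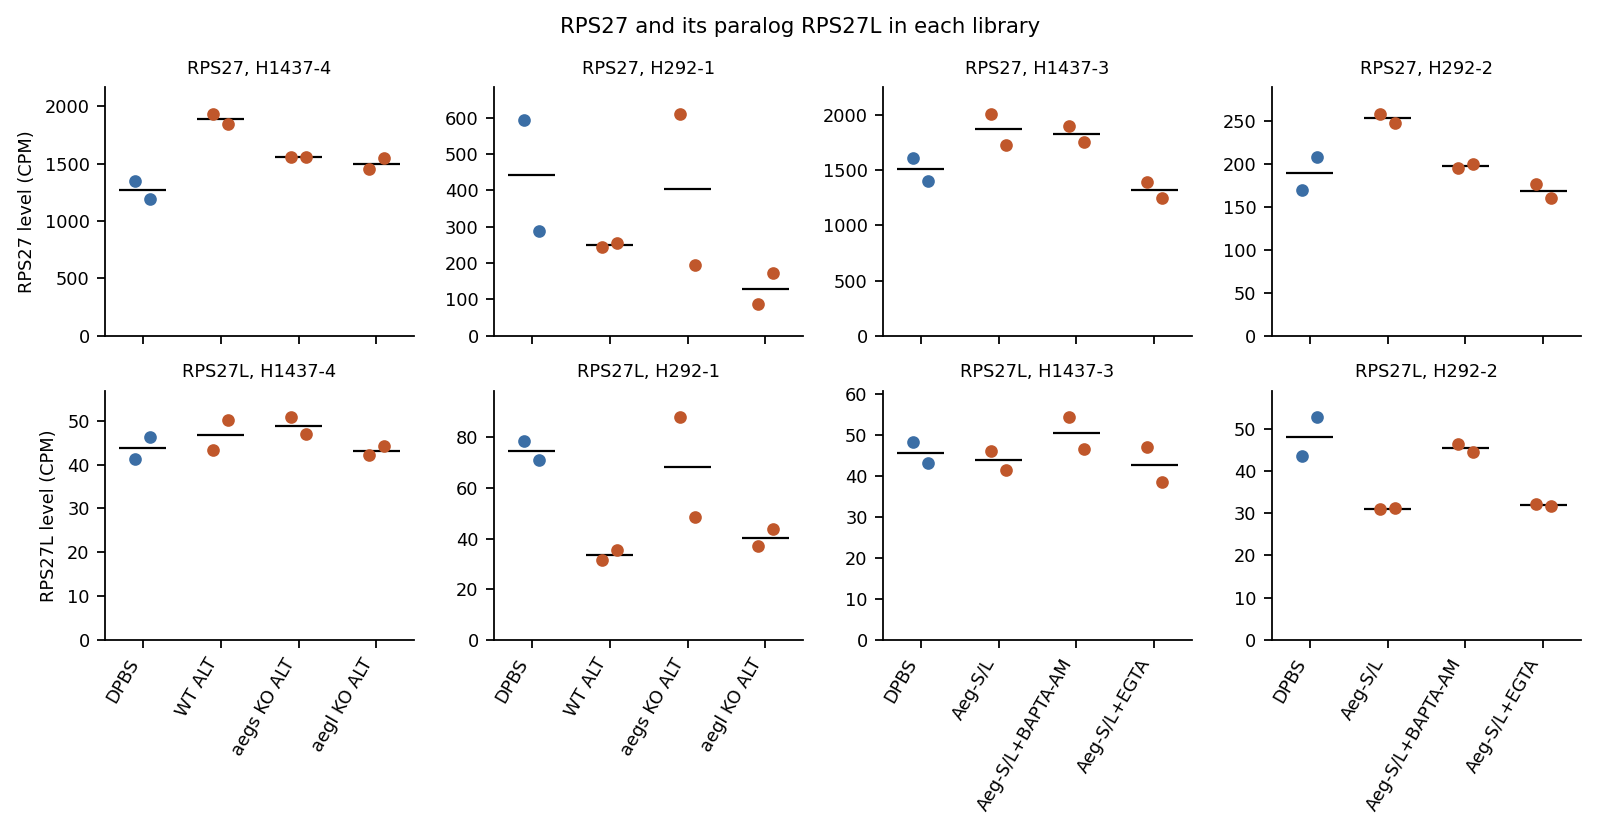
Levels of RPS27 and RPS27L in each library, in CPM on linear axes that start at 0 and differ between panels, by treatment with group means as lines, in the 4 experiments H1437-3, H1437-4, H292-2 and H292-1. RPS27L falls from 43.5 and 52.7 to 31.0 and 31.3 with Aeg-S/L in H292-2, while RPS27 rises from 171 and 208 to 259 and 248.

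How far a member moved followed the length of its coding sequence in some experiments. Over the 72 members above 40 CPM in both lines, Spearman's coefficient between coding length and log2 change was -0.62 for WT ALT in H1437-4 and -0.53 for Aeg-S/L in H1437-3, so shorter members rose more. It was 0.72 for EGTA against Aeg-S/L in H1437-3 and 0.78 for Tra against ALT in H1437-1, so shorter members fell more. It was near 0 for Aeg-S/L in H292-2 (-0.002) and 0.14 for EGTA there, and 0.55 for WT ALT in H292-1. These are descriptions across genes that share libraries and depth.

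Length also went with the spread between replicates and with the changes of other genes. Spearman's coefficient between coding length and the SD between replicates was between -0.79 and -0.39 over the 6 experiments, so shorter members spread more. Over all tested genes with a coding length, the coefficient with the change was -0.22 for WT ALT in H1437-4 (12753 genes), 0.24 for EGTA in H1437-3 and 0.41 for Tra against ALT in H1437-1. The part of RNA or library quality in this was not tested.

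**Figure D5:**
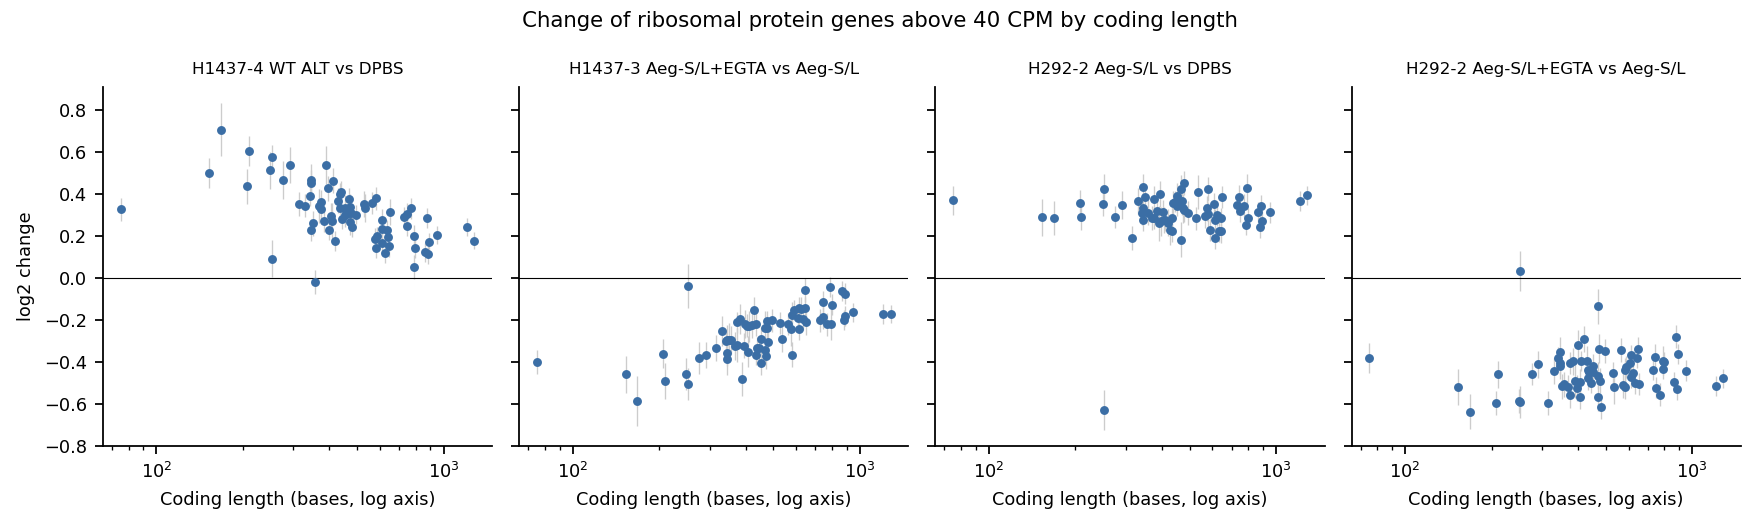
Log2 change of 72 ribosomal protein genes against coding length in bases (log axis), in 4 comparisons, 1 point per gene with its standard error. Shorter genes lie higher for WT ALT in H1437-4 (Spearman's coefficient -0.62) and lower for EGTA in H1437-3 (0.72), and no slope is seen for Aeg-S/L in H292-2 (-0.002).

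Members with and without the TOP form at their annotated start were among those that rose. With Aeg-S/L in H292-2, 43 of 45 tested members with the start and 15 of 17 without it were called higher, with medians of 0.32 and 0.30. With WT ALT in H1437-4 the counts were 42 of 45 and 13 of 17, with medians of 0.33 and 0.23. With Aeg-S/L in H1437-3 they were 28 of 45 and 6 of 17, with medians of 0.18 and 0.15. The difference between the 2 sets was not tested. RPS29, whose annotated start lacks the run, had the largest called fall under EGTA in H1437-3 and the second in H292-2. Gene counts do not show whether its transcripts began at that start, so nothing about the TOP form is read from this gene.

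Translation factors known for TOP mRNAs, such as the elongation factor EEF2, were followed as a list of 22 genes. Of the 14 with a RefSeq promoter, 13 had the start. Of 21 tested, 17 rose and none fell with Aeg-S/L in H292-2 (median 0.27), 8 rose and 2 fell in H1437-3 (median 0.10), and 12 rose and 1 fell with WT ALT in H1437-4 (median 0.14). The shares of all genes called higher were 22.1%, 15.4% and 15.8%. Under EGTA against Aeg-S/L, 16 fell in H292-2 and none rose, and 7 fell and 3 rose in H1437-3 (median -0.06), where 21.7% and 14.8% of all genes were called lower. EIF4B, an initiation factor, went against most of the list: it fell by 0.32 ± 0.06 with WT ALT in H1437-4 and rose by 0.37 ± 0.05 under EGTA in H1437-3. With BAPTA-AM 9 rose and none fell in H1437-3, where 11.6% of all genes were called higher. In H292-2 9 fell and 2 rose, where 20.3% were called lower and 17.6% higher. FAU, which encodes a further ribosomal protein fused to a ubiquitin-like protein and lies outside the naming rule, fell under EGTA in H292-2 by 0.58 ± 0.06.

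Ribosome biogenesis factors rose and fell in each of these comparisons. Of 42 tested, 23 rose and 7 fell with Aeg-S/L in H292-2 (median 0.23), and 25 rose and 10 fell when EGTA was added (median 0.20), where the ribosomal proteins fell. Of all 16380 genes there, 3628 were called higher and 3453 lower with Aeg-S/L, and 3800 higher and 3560 lower when EGTA was added. In H1437-3 16 rose and 9 fell with Aeg-S/L, and in H1437-4 12 rose and 11 fell with WT ALT (median -0.01). Among all genes 2596 rose and 2670 fell of 16904 in H1437-3, and 2632 rose and 2851 fell of 16711 in H1437-4. RRP12 (1.07 ± 0.06), NOP16 (1.01 ± 0.08) and GRWD1 (0.78 ± 0.06), which act in subunit assembly, rose in H292-2. POLR1B, a subunit of RNA polymerase I, fell by 0.76 ± 0.08 in H1437-4.

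Mitochondrial ribosomal protein genes were called higher with Aeg-S/L about as often as all genes. Of 74 tested, 17 rose and 10 fell in H292-2 (median 0.03), where 22.1% of all genes were called higher and 21.1% lower, and 10 rose and 6 fell in H1437-3, where 15.4% were called higher. EGTA lowered 35 and raised 8 in H292-2, and lowered 21 and raised 1 in H1437-3. Among all genes 21.7% and 14.8% were called lower, and 3800 of 16380 and 2667 of 16904 higher. BAPTA-AM raised 26 and lowered 1 in H292-2, where cytosolic members fell, and raised 19 and lowered 1 in H1437-3. The shares of all genes were 17.6% higher and 20.3% lower in H292-2, and 11.6% higher and 16.1% lower in H1437-3.

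RPL22L1, a paralog of RPL22 outside the naming rule, rose more than any called member in H1437-3 and H292-2. Its change was 0.71 ± 0.08 with Aeg-S/L in H1437-3, 0.54 ± 0.06 in H292-2 and 0.70 ± 0.07 with WT ALT in H1437-4. It fell by 0.46 and 0.35 under EGTA in H1437-3 and H292-2.

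MYC mRNA moved with ribosomal protein mRNA in some comparisons and apart from it in others. MYC rose by 2.36 ± 0.11 (log2) with Aeg-S/L in H292-2, where 71 members rose, and by 2.41 ± 0.16 with WT ALT in H292-1, where no ribosomal protein gene rose. In NCI-H1437 it was not called with Aeg-S/L (0.10 ± 0.05, adjusted p = 0.203) or with WT ALT (0.08 ± 0.05, adjusted p = 0.267), where 41 and 68 members rose. EGTA raised MYC against Aeg-S/L alone, by 1.16 ± 0.05 in H1437-3 and 0.93 ± 0.10 in H292-2, while the ribosomal protein genes fell. BAPTA-AM lowered MYC in both lines, by 0.54 ± 0.05 in H1437-3, where 32 members rose, and by 0.29 ± 0.10 in H292-2, where 39 fell (adjusted p = 1.15e-06 and 0.0320). With ALT and Tra in H1437-1, MYC was called at -1.34 ± 0.21 against DPBS and -1.56 ± 0.21 against ALT. The members' medians there were -0.66 and -0.57. With aegl KO extract in H292-1 MYC was called at 1.52 ± 0.16 against DPBS, where the members' median was -0.48. Against WT ALT in H292-1, MYC was called at -2.17 with aegs KO and -0.88 with aegl KO extract. The members' medians were -0.07 and -0.405.

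Over the 28 comparisons within experiments, at least 1 member was called in 22. RPL3, a protein at the peptidyl transferase centre, and RPL38 were each called in 13, RPL3 higher in 6 and lower in 7, and RPL38 higher in 8 and lower in 5. RPL3 had 1647 and 1770 CPM in DPBS, 2215 and 2183 CPM with Aeg-S/L, 2010 and 1979 CPM with BAPTA-AM added and 1580 and 1500 CPM with EGTA added in H292-2. The members never called, RPL3L, RPL10L, RPL17, RPS10 and RPS18 among them, were all below 10 CPM in DPBS of both lines.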

How the data were processed

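The human tables hold gene counts that the authors deposited as raw whole numbers per library. Per the submitters' processing notes, HISAT2 2.2.1, SAMtools and featureCounts 2.0.2 were used, with builds hg19 and mm10 and DESeq2 1.36.0 in R 4.2.2. Libraries were made with a NEBNext Ultra RNA kit, per the labels' protocols. Settings for strand and multiple matches were not given in the sources used here. A gene length column in the deposited tables was used only for levels per kilobase.

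Fits were made per experiment, over all its groups, by edgeR 4.0.16 (R 4.3.3; filterByExpr, TMM, quasi-likelihood F test, Benjamini-Hochberg over all genes tested, threshold 0.05). The standard error is |log2 change|/√F. Line differences came from joint fits. The fit was tested on simulated data with 200 changed genes. Symbols were matched by Ensembl identifier, 51996 of 57820 genes. Named members are up to 5 called rises and falls per comparison, the stalk and RPSA, the paralogs with their main copies, the most often called, and the extremes of level per length; others were named after their values were seen, and a few are not reported here. The members and lists were chosen with earlier results of these data known. Alternatives were DESeq2 1.42.0, no filter on low counts, DESeq2 size factors, TMM without the members, library totals alone, a replicate block and each library left out; fits of the compared groups alone were added after seeing the data. No pair of replicates agreed within sampling noise: chi-square per degree of freedom was at least 3.95 over 30 pairs. PECAM1 and BOP1 were not matched.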

Additional observations from a re-analysis of the deposited data

Results flagged for a closer look

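Differences between the cell lines in the effect of the same treatment were called by edgeR in joint fits. For WT ALT (H292-1 minus H1437-4) 6 of 80 members were called, all lower, where 4.70% of all genes were called lower. Among them were RPS29 at -1.54, RPS27L at -1.28, RPL38 at -1.12, RPL26 at -1.05 and RPS21 at -0.80 on the log2 scale. For Aeg-S/L (H292-2 minus H1437-3) 9 of 80 members were called, 8 higher and 1 lower, where 7.48% and 6.82% of all genes were. Among them were RPL6 at 0.32, RPL7 at 0.30, RPL30 at 0.29, RPL4 at 0.26 and RPS27L at -0.55. Whether the counts for WT ALT and Aeg-S/L exceed the share over all genes was not tested. For BAPTA-AM against Aeg-S/L 49 of 80 were called, all lower, where 6.01% of all genes were. Among them were RPS28 at -0.61, RPL30 at -0.56, RPL28 at -0.54 and RPL14 at -0.51. For EGTA against Aeg-S/L 25 of 80 were called, all lower, where 6.15% of all genes were. They were led by RPL6 at -0.44, RPS4X at -0.40, RPSA at -0.36, RPS7 at -0.35 and RPL3 at -0.35. Line and experiment cannot be told apart in any of these.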

How the results depend on the processing

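Counts of called members (edgeR unless named) moved by over 1.5 times as follows; the cause was not tested. Without the filter on low counts they were, in H1437-1, 0 for ALT, 19 for ALT with Tra against DPBS and 22 against ALT; in H1437-2, 4 for Aeg-S, 5 for Aeg-S/L, and 9 and 8 for Aeg-S/L with Tra against DPBS and against Aeg-S/L; 7 for EGTA against DPBS in H1437-3; 12 and 10 for aegs KO and aegl KO against DPBS in H1437-4; in H292-1, 11 for WT ALT, 42 for aegl KO, and 14 and 40 for aegs KO and aegl KO against WT ALT; and 27 and 24 for the line differences in WT ALT and Aeg-S/L. With DESeq2 they were 6 for Aeg-S/L with Tra against DPBS, 2 for EGTA against DPBS in H1437-3, 13 and 7 for aegs KO and aegl KO in H1437-4, 23 for aegl KO, 9 and 23 for aegs KO and aegl KO against WT ALT in H292-1, and 10 and 21 for the line differences in WT ALT and Aeg-S/L. With library totals alone they were 9 for Aeg-S/L, 60 for BAPTA-AM and 35 for EGTA against Aeg-S/L in H1437-3; 41 for Aeg-S/L and 8 for BAPTA-AM against Aeg-S/L in H292-2; 20 and 28 for aegs KO and aegl KO against WT ALT in H1437-4; 2 and 5 in H292-1; and 3 for the line difference in Aeg-S/L. Fits of the compared groups alone, chosen after seeing the data, gave 2 for Tra against ALT; 42 for Aeg-S/L, 56 and 19 for Tra against DPBS and Aeg-S/L in H1437-2; 0 for EGTA against DPBS in H1437-3; 18 for EGTA against DPBS and 69 for BAPTA-AM against Aeg-S/L in H292-2; 23 and 6 for aegs KO and aegl KO in H1437-4; and 11 each for WT ALT and aegs KO and 42 for aegl KO against WT ALT in H292-1. DESeq2 size factors and TMM without the members moved none of the 32 counts by as much.

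The replicate block gave 6 for EGTA against DPBS in H1437-3 and 2 for aegl KO against DPBS in H1437-4, and moved no other count by over 1.5 times. Same-numbered libraries did not deviate together in every pair (correlations from -0.23 to 0.56), so the numbers were not used for pairing. Medians reversed for ALT in H1437-1 (0.046 with the block, -0.368 to 0.360 with a library left out, the latter without DPBS replicate 1), for BAPTA-AM against Aeg-S/L in H292-2 (0.034 with library totals alone, with RPL10 at 0.030, RPL3 at 0.044, RPL37A at 0.008, RPLP0 at 0.054 and RPLP1 at 0.132) and for aegs KO against WT ALT in H292-1 (0.054 with library totals alone, -0.378 to 0.172 with a library left out, the latter without aegs KO replicate 2).

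Leaving out each library in turn gave, as lowest and highest counts, in H1437-1, 0 to 1 for ALT, 0 for ALT with Tra against DPBS and 0 to 1 against ALT; in H1437-2, 0 to 27 for Aeg-S, 0 for Aeg-L, 0 to 4 for Aeg-S/L, and 0 to 6 and 1 to 7 for Tra against DPBS and Aeg-S/L. In H1437-3 they were 6 to 52 for Aeg-S/L, 48 to 70 and 0 to 11 for BAPTA-AM and EGTA against DPBS, and 21 to 36 and 34 to 66 against Aeg-S/L (21 without Aeg-S/L replicate 2). In H292-2 they were 63 to 73 for Aeg-S/L, 8 to 64 and 10 to 46 for BAPTA-AM and EGTA against DPBS (8 without DPBS replicate 1, 10 without DPBS replicate 2), and 11 to 61 and 71 to 72 against Aeg-S/L. In H1437-4 they were 56 to 69 for WT ALT, 0 to 24 and 0 to 14 for aegs KO and aegl KO against DPBS, and 10 to 57 and 19 to 64 against WT ALT. In H292-1 they were 0 to 3 for WT ALT, 0 and 0 to 23 for aegs KO and aegl KO against DPBS, and 0 to 13 and 0 to 35 against WT ALT. The line differences ranged over 1 to 34 for WT ALT, 2 to 19 for Aeg-S/L, 32 to 52 for BAPTA-AM and 9 to 38 for EGTA. Where 1 library was left in a group, it was assumed to vary like the others. Whether replicate spread or depth limits these counts was not tested.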

Other observations

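MRPS24, a protein of the small subunit of the mitochondrial ribosome, moved far more than the other ribosomal protein genes. It had 2.06 and 0.893 CPM in DPBS and 18.5 and 18.3 CPM with Aeg-S/L in H292-2 (3.65 ± 0.26 on the log2 scale, adjusted p = 9.71e-10), and 0.815 and 0.721 CPM with BAPTA-AM and 2.28 and 1.85 CPM with EGTA added. In H1437-3 it went from 0.326 and 0.284 CPM to 4.54 and 3.69 CPM with Aeg-S/L (3.74 ± 0.43). With WT ALT it rose by 3.43 ± 0.39 in H1437-4 and 3.72 ± 0.35 in H292-1, from 1.39 and 1.38 CPM to 19.0 and 17.6 CPM in the latter, where the cytosolic genes did not rise. With aegs KO and aegl KO extracts in H1437-4 it was at 0.169 and 0.385 CPM and at 0.298 and 0.200 CPM. Its levels are low, and reads of an overlapping gene or transcript cannot be told apart in these counts.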
